A study of Mus musculus with 6 samples.

Results

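Chemokines are small secreted proteins that guide the movement of leukocytes, and they act through G protein-coupled receptors on the surface of the responding cells. The genes described here are the CC and CXC chemokine ligands and their receptors, taken as every mouse gene on the array whose symbol begins with Ccl, Cxcl, Ccr or Cxcr followed by a number. There were 49 such genes, 32 for ligands and 17 for receptors, and 58 probes measured them. The array held 36710 genes, counted by symbol or, where a probe had none, by its identifier. RNA came from the gastrocnemius muscle of male C57BL/6J mice for which the labels and methods give no treatment. The young group was 3 mice at 13 weeks of age and the aged group was 3 mice at 26 months of age, with 1 single-colour Agilent array for each mouse. The family was chosen with results of these same 6 arrays known, so the counts of members that were higher or lower are descriptions and not independent tests.

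The names CC and CXC refer to the spacing of conserved cysteines near the start of the protein. Inflammatory chemokines such as Ccl2, Ccl7, Ccl8 and Ccl12 are made by macrophages, endothelium, fibroblasts and injured muscle, and they attract monocytes and other leukocytes, Ccl2, Ccl7 and Ccl12 through the receptor CCR2. Homeostatic chemokines such as Cxcl12, Cxcl13 and Ccl19 place lymphocytes and stem cells in tissues, and their genes are active without inflammation. Muscle that is regenerating after damage depends on monocytes recruited through CCR2.

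All values are log2 signals on a scale where 0 is the 75th percentile of the array, and a value can be compared between mice for the same probe but not between probes. Each array gives a flag for whether a probe is well above background. A gene was tested when its probe had this flag on at least 3 of the 6 arrays, regardless of group. The comparison of aged with young mice was made with limma over all 20900 such genes. Of these 13841 had a symbol, and the shares over all genes tested given below include those without one. All 9 skeletal muscle fibre markers, among them Ckm and Myh4, were tested. Between 49.2% and 50.7% of probes on a young mouse's array, and between 48.7% and 53.8% on an aged mouse's, had the flag. The arrays of all young mice and of aged mouse 1 lay in row 1 of the slide, and those of aged mice 2 and 3 in row 2. Whole muscle holds many cell types, so more cells of a type and more RNA per cell cannot be told apart in any value below.

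The sequences just upstream of the start sites of Ccl8, Ccl12, Cxcl10, Ccl9 and Ccl6 are shown so that neighbours can be compared, since Ccl12 and Ccl8 are next to each other on the chromosome, as are Ccl9 and Ccl6, and because Cxcl10 is induced by interferons. In all 5 genes every aged mouse was above every young mouse. They are the 250 bases before the start, from RefSeq on GRCm38.p6. Ccl8 lies at chr11:82114935-82115184 and Ccl12 at chr11:82101595-82101844, both on the plus strand, and Cxcl10 at chr5:92348890-92349139, Ccl9 at chr11:83578637-83578886 and Ccl6 at chr11:83593088-83593337, all on the minus strand. Each is written 5′ to 3′ on the strand of the gene, ending at the base before the start, and capitals mark matches to the motifs named after them.
Ccl8: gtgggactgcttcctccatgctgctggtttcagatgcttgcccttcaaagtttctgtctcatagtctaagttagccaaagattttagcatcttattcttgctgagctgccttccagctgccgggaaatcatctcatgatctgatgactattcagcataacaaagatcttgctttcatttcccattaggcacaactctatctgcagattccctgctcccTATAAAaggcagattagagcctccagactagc
Ccl12: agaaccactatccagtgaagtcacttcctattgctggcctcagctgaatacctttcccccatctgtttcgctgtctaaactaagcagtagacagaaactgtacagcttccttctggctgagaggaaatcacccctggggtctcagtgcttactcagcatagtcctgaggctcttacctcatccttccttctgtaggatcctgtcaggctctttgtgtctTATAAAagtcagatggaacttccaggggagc
Cxcl10: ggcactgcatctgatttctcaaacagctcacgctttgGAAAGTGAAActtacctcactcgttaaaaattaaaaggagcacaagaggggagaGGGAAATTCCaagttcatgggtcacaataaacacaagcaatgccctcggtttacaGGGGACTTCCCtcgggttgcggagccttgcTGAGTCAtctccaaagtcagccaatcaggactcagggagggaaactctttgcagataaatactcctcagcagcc
Ccl9: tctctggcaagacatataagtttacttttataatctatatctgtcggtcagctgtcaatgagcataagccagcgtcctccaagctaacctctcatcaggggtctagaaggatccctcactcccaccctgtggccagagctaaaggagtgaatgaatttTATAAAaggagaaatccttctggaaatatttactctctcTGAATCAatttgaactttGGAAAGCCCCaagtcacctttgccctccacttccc
Ccl6: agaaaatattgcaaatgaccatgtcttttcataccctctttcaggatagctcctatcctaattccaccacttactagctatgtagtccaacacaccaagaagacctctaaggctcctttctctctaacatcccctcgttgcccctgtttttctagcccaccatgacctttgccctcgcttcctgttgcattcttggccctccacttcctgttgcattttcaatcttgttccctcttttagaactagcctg

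The motifs searched were the interferon regulatory factor element GAAANNGAAA, the AP-1 element TGANTCA, the STAT element TTCNNNGAA and the NF-kB consensus, each on both strands, and the TATA box TATAAA on the strand of the gene. Cxcl10, an interferon-induced chemokine, held GAAAGTGAAA at 204 to 213 bases before the start. It also held 3 NF-kB matches, at 150 to 159, 95 to 104 and 94 to 103 bases before the start, of which the last 2 overlap, and the AP-1 match TGAGTCA at 68 to 74 bases. The neighbouring genes Ccl8 and Ccl12 both held TATAAA, at 27 to 32 bases in Ccl8 and at 26 to 31 bases in Ccl12. Ccl9 held an NF-kB match at 26 to 35 bases, the AP-1 match TGAATCA at 47 to 53 bases and TATAAA at 87 to 92 bases, and the window of Ccl6 held none of the 5 motifs. Across 32841 windows of the same length, 7.25% held the NF-kB consensus, 2.98% the interferon regulatory factor element, 6.75% the AP-1 element, 7.02% the STAT element and 7.59% the TATA box. Among 39 windows of 35 members, 10 (25.6%) held the NF-kB consensus, 9 (23.1%) the TATA box, 5 (12.8%) the AP-1 element, 4 (10.3%) the STAT element and 3 (7.69%) the interferon regulatory factor element. No window was available for 7 tested members, Ccl11, Ccl2, Ccl24, Ccl5, Ccl7, Ccr7 and Cxcl16, so the family shares leave them out. These matches are a description of the letters in the window.

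Several inflammatory ligands had higher signals in the muscle of every aged mouse, and so did Cxcl13, named above as homeostatic. Other inflammatory ligands, among them Ccl2, Ccl3, Ccl4, Cxcl1 and Cxcl5, had overlapping groups or were too dim to test. The same held for most receptors and for Cxcl12. Of the 49 members, 26 could be tested (19 ligands and 7 receptors), 9 were well above background on 1 or 2 arrays and 14 on none. The mean was higher in aged mice for 19 of the 26 and lower for 7, whereas 43.1% of all genes tested had a higher mean. The median log2 difference was 0.49 over the members tested, 0.95 over the ligands and 0.06 over the receptors, beside -0.06 over all genes tested. Ccl12 passed the filter on dim probes only through the aged mice, and 6 other tested members were above background on 3 to 5 arrays, so these medians do not stand for the whole family. Over the 19 members well above background on all 6 arrays the median was 0.31, and over all 49 members it was 0.28. After normexp background correction the median over the members tested was 0.06, and after scaling each array to its median the mean was higher in aged mice for 16 of the 26. At an adjusted p under 0.05, 1 member passed, Ccl8, where 0.254% of all genes tested passed in either direction and 0.196% were higher in aged mice. Without an adjustment, 10 members had a p under 0.05 and all were higher in aged mice, while 6.07% of all genes were past that threshold and higher and 8.36% were past it and lower.

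The count of genes past the adjusted threshold depended on single mice. It was 53 with all mice, 199 without aged mouse 1, 1 without aged mouse 3, and 8 or 9 without any other mouse. The count of members was 2 without aged mouse 1 (Ccl8 and Cxcl10), 1 without young mouse 1, and 0 without any of the other 4. Every aged mouse was above every young mouse for 10 of the 26 members, where 7.92% of all genes tested had this pattern. For 8 of these the log2 difference was at least 1, where 2.45% of all genes had both. They were Ccl8, Cxcl10, Ccl12, Ccl7, Ccl6, Cxcl13, Ccl9 and Ccl5, and Cxcl14 and Ccr2 made up the 10. Of the 10, 8 were well above background on all 6 arrays, Ccl7 was so on 5 and Ccl12 in the aged mice alone. Just below the cut of 1 stood Cxcl14 at 0.95 and just above it Ccl5 at 1.37. For 1 member, Ccl25, all aged mice lay under all young mice, where 13.9% of all genes had that pattern.

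**Figure D1:**
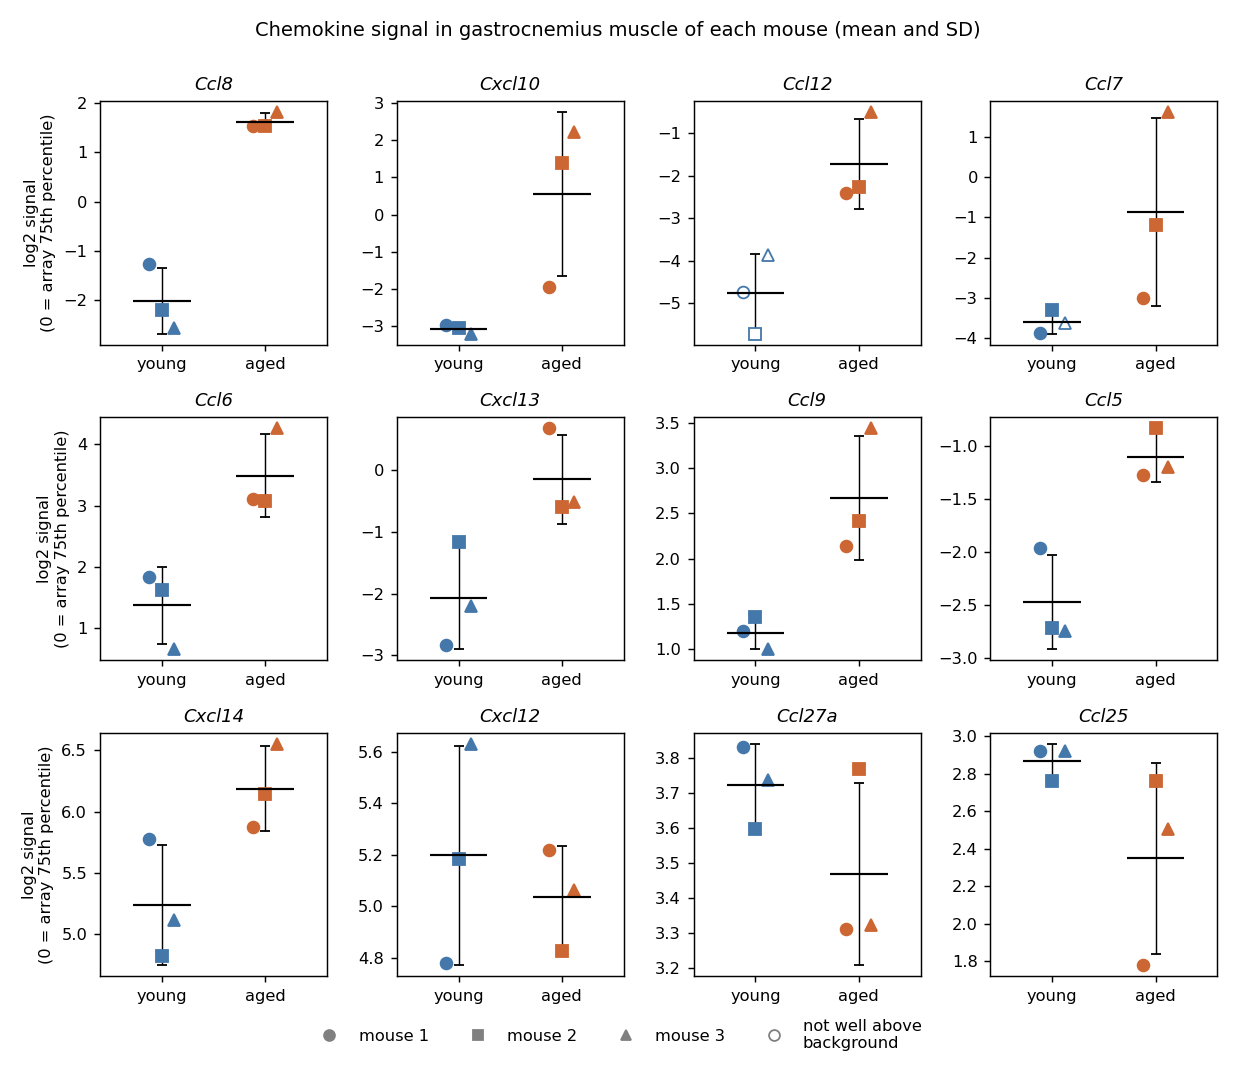
Log2 signal (vertical axis, 0 is the 75th percentile of the array) of 12 chemokine genes in each of the 3 young and 3 aged mice. Points are mice, open where the probe was not well above background, the horizontal line is the group mean and the bar its SD. Aged mice lie above young mice for the first 9 genes, and Cxcl12 and Ccl27a overlap.

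Ccl2, Ccl7, Ccl8 and Ccl12 form the monocyte chemoattractant group, of which Ccl2, Ccl7 and Ccl12 are ligands of CCR2. CCR2 is the receptor by which inflammatory monocytes leave the bone marrow and enter tissue. All 4 genes of the group had a higher mean in aged mice, although Ccl12 was not well above background in any young mouse. Every aged mouse was above every young mouse for Ccl8 and Ccl7 among the 3 genes well above background in mice of both groups, and Ccl2 overlapped.

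Ccl8, also called monocyte chemoattractant protein 2, which in the mouse also acts on the receptor CCR8, had log2 signals of -1.27, -2.20 and -2.56 in young mice 1 to 3. In aged mice 1 to 3 it had 1.53, 1.53 and 1.82. All 3 aged mice were close together and far above the young mice. The young mean was -2.01 ± 0.67 (SD, n = 3) and the aged mean 1.63 ± 0.17 (SD, n = 3), a rise of 12.5-fold (log2 fold change 3.64, standard error 0.33, adjusted p = 0.0214 in limma). Within row 1 of the slide, aged mouse 1 was 3.54 above the mean of the young mice on the log2 scale. A fit with the row as a block gives this same difference, because row 2 held no young mouse. After normexp background correction the log2 fold change was 2.72 (adjusted p = 0.00373 in limma). The adjusted p was 0.103 without young mouse 2, 0.0539 without young mouse 3, 0.0856 without aged mouse 2 and 0.111 without aged mouse 3, with log2 fold changes of 3.36 to 4.01 over the 6 fits that left out a mouse.

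Ccl12, or monocyte chemoattractant protein 5, was not well above background in any young mouse and was well above it in every aged mouse. The measured log2 signals were -4.73, -5.72 and -3.86 in young mice and -2.42, -2.28 and -0.51 in aged mice. Aged mouse 3 was the highest, and the dimmest aged mouse was still above the brightest young mouse. Since no young mouse had the flag, the mean of the aged mice was also set against a floor. The floor was the lowest signal among probes well above background on each young array, or the probe's own signal where that was higher. Against the floor Ccl12 was 4.77-fold higher in aged mice, and the adjusted p from the measured signals was 0.143 in limma. The floor is not a strict limit, because a probe without the flag can lie above it. In young mouse 3 Ccl12 did so, at -3.86 against -3.88. The measured means were -4.77 and -1.73, and after normexp background correction the log2 difference was 0.76. Ccl12 passed the filter through the aged mice alone, and a difference was therefore built into its being tested.

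Ccl7, or monocyte chemoattractant protein 3, varied widely among aged mice. Its log2 signals were -3.87, -3.31 and -3.64 in young mice, the last not well above background, and of -3.01, -1.18 and 1.62 in aged mice. The young mice were close together, while aged mouse 1 was little above them and aged mouse 3 far above. The log2 fold change was 2.75 (standard error 1.05, adjusted p = 0.314 in limma), and it was 0.59 within row 1 of the slide and 1.41 after normexp correction.

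Ccl2, or monocyte chemoattractant protein 1, was not chosen by the rule for named genes and is given because it completes the group. It had -1.90, -1.01 and -1.32 in young mice and -1.62, -0.03 and 2.41 in aged mice. Aged mouse 1 lay among the young mice, so the groups overlapped. The mean was 1.66 higher in aged mice (standard error 0.93, adjusted p = 0.455 in limma), but within row 1 of the slide aged mouse 1 was below the mean of the young mice, at -0.21. Aged mouse 3 was the highest aged mouse for all 4 of these genes.

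The macrophage inflammatory protein group and Ccl5 act on monocytes, macrophages and T cells, in part through CCR1. Of 5 members in this group, Ccl5, Ccl6 and Ccl9 were tested, all 3 had every aged mouse above every young mouse, and the median log2 difference was 1.49. Ccl3 and Ccl4 were too dim to test.

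Ccl6, a ligand of CCR1 in rodents with no direct human counterpart, had log2 signals of 1.83, 1.62 and 0.65 in young mice and 3.11, 3.08 and 4.27 in aged mice. The lowest aged mouse was well clear of the highest young mouse. The mean was 4.35-fold higher in aged mice (log2 fold change 2.12, standard error 0.43, adjusted p = 0.138 in limma).

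Ccl9, its neighbour on the chromosome and also a CCR1 ligand, had 1.19, 1.35 and 0.996 in young mice and 2.14, 2.41 and 3.44 in aged mice. Aged mouse 3 was again the highest, and the groups were apart. The mean was 2.81-fold higher in aged mice (log2 fold change 1.49, standard error 0.34, adjusted p = 0.156 in limma).

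Ccl5, also named RANTES, attracts T cells and monocytes and is made by activated T cells, NK cells and macrophages. It had -1.96, -2.71 and -2.74 in young mice and -1.27, -0.83 and -1.20 in aged mice. The aged mice were close together, and all were above the young mice. The mean was 2.59-fold higher in aged mice (log2 fold change 1.37, standard error 0.26, adjusted p = 0.125 in limma). The log2 fold change of Ccl5 was 1.24 to 1.63 over the fits that left out a mouse and 0.78 after normexp correction.

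Cxcl10 had nearly the same fold as Ccl8 but with far more spread among aged mice. Cxcl9, Cxcl10 and Cxcl11 are induced by interferons and attract activated T cells and NK cells through CXCR3. Cxcl10 had log2 signals of -2.97, -3.04 and -3.20 in young mice and -1.95, 1.39 and 2.21 in aged mice. The young mice were tightly grouped, aged mouse 1 was moderately higher, and aged mice 2 and 3 were much higher. The mean was 12.3-fold higher in aged mice (log2 fold change 3.62, standard error 0.98, adjusted p = 0.202 in limma). Without aged mouse 1 the log2 fold change was 4.87 and the adjusted p was 0.00824 in limma, within row 1 of the slide aged mouse 1 was 1.12 above the young mean, and after normexp correction the log2 fold change was 2.23. The gene model of Cxcl10 overlaps that of Art3, and the probe was assigned to Cxcl10 by its transcript accession.

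Cxcl9 was well above background in young mice 2 and 3 and aged mouse 3, so that it was tested near the lower limit of the array. Its log2 difference was -0.71 (standard error 0.70, adjusted p = 0.663 in limma), with overlapping groups. A second probe of Cxcl9, not well above background on any array, differed by -0.69. Cxcl11 was not analysed here.

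Among the other CXC ligands, Cxcl13 and Cxcl14 had every aged mouse above every young mouse, and Cxcl12 and Cxcl16 had overlapping groups. The median log2 difference of these 4 was 0.50.

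Cxcl13, which attracts B cells to lymphoid follicles through CXCR5, had log2 signals of -2.83, -1.16 and -2.19 in young mice and 0.69, -0.60 and -0.51 in aged mice. Aged mouse 1 was the highest here, unlike for Ccl2, Ccl7, Ccl8, Ccl12 and Cxcl10. The mean was 3.78-fold higher in aged mice (log2 fold change 1.92, standard error 0.51, adjusted p = 0.194 in limma), and the difference was 2.75 within row 1 of the slide and 1.23 after normexp correction.

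Cxcl14, a chemokine of epithelium and connective tissue, had 5.78, 4.82 and 5.11 in young mice and 5.87, 6.14 and 6.55 in aged mice. The gap between the groups was small, since young mouse 1 lay just below aged mouse 1. The mean was 1.93-fold higher in aged mice (log2 fold change 0.95, standard error 0.30, adjusted p = 0.249 in limma).

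Cxcl12, the ligand of CXCR4 that holds stem cells and leukocytes in place, had 4.78, 5.18 and 5.63 in young mice and 5.22, 4.83 and 5.06 in aged mice. The aged mice lay inside the range of the young mice. The log2 difference was -0.16 (standard error 0.25, adjusted p = 0.792 in limma), and a second probe, for another transcript of Cxcl12, differed by -0.00093. The sign of the first was not stable, at 0.055 without young mouse 3 and 0.023 with the slide row as a block. That block compares aged mouse 1 alone with the young mice. Cxcl16, a membrane-anchored ligand of CXCR6, had a log2 difference of 0.05 with overlapping groups.

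The CC chemokines of lymphoid organs and epithelium had small differences in both directions. Of 8 such genes on the array, 4 were tested, with a median log2 difference of 0.01 and none that passed the adjusted threshold. Ccl27a, which draws T cells to skin through CCR10, had log2 signals of 3.83, 3.60 and 3.74 in young mice and 3.31, 3.77 and 3.32 in aged mice. Aged mouse 2 was among the young mice, and the other aged mice were below them. The log2 difference was -0.25 (standard error 0.19, adjusted p = 0.563 in limma), and the other probes of Ccl27a differed by -0.23 and -0.20. Its gene model overlaps that of Il11ra1, and the near-identical Ccl27b was not analysed here, so the assignment of this signal to Ccl27a is uncertain.

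Ccl25, which guides T cell precursors to the thymus and T cells to the gut through CCR9, had 2.92, 2.76 and 2.92 in young mice and 1.78, 2.76 and 2.50 in aged mice. Aged mouse 2 and young mouse 2 were equal to 2 decimals, so that the absence of overlap rests on a very small gap. The log2 difference was -0.52 (standard error 0.27, adjusted p = 0.425 in limma). A second probe, not well above background in aged mouse 2, differed by -0.49 with overlapping groups.

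Ccl19, a ligand of CCR7 that guides T cells and dendritic cells into lymph nodes, had 3 probes well above background on all arrays that differed in size. The probe with the brightest signal gave a log2 difference of 0.28 with overlapping groups, and the others gave 0.86 and 1.16. Both of these had every aged mouse above the young mice. On the probe with 0.86 the young mice had -2.89, -2.45 and -2.60 and the aged mice -2.04, -1.94 and -1.40, and on the probe with 1.16 the young mice had -1.97, -1.98 and -2.29 and the aged mice -0.91, -1.50 and -0.35. Ccl19 is counted as overlapping above because the brightest probe stands for a gene. The Ccl21 genes, whose products share CCR7 with Ccl19, were not analysed here. Ccl17, a ligand of CCR4, was well above background on 3 arrays and had a log2 difference of 0.81 (adjusted p = 0.640 in limma).

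The eotaxins attract eosinophils through CCR3. Ccl11 had a log2 difference of -0.23 and Ccl24 one of 0.31, both with overlapping groups, and Ccl26 was not well above background on any array. None of the 4 eosinophil markers was tested.

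**Figure D2:**
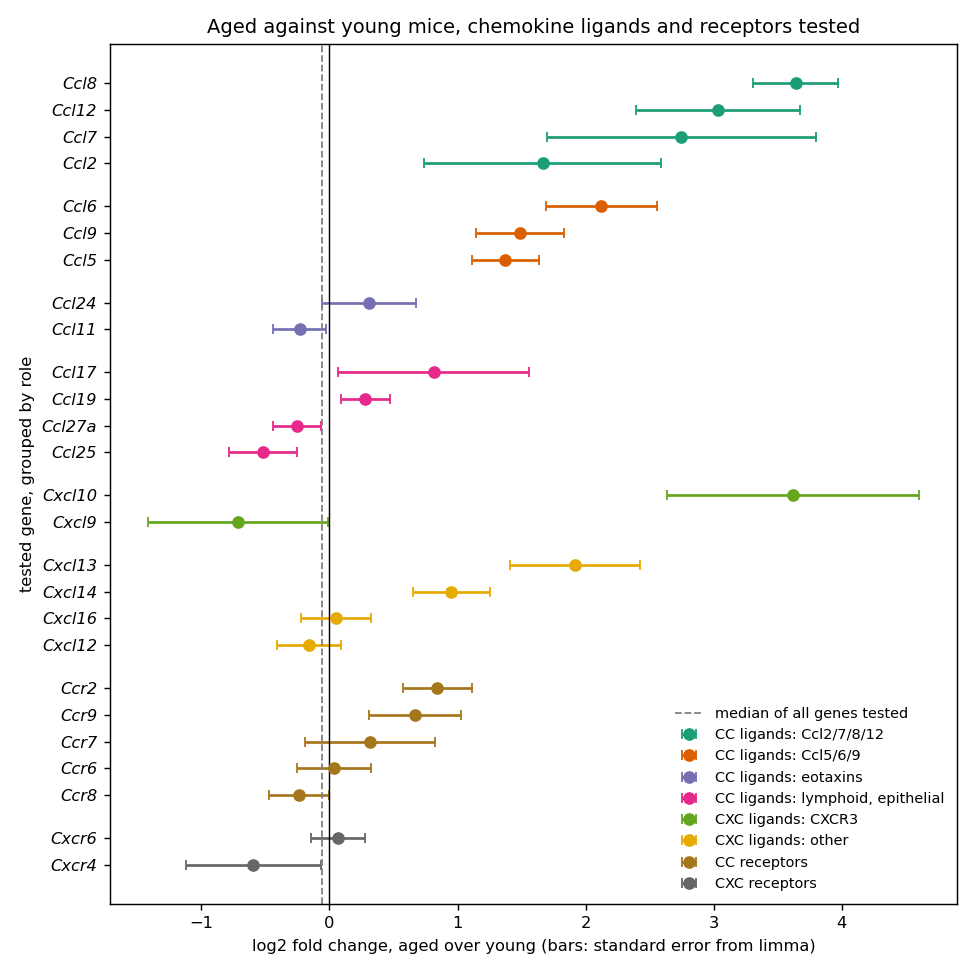
Log2 fold change of aged over young mice (horizontal axis) for the 26 chemokine ligand and receptor genes tested, grouped by role. Points are the limma estimates and bars their standard errors, the solid line is 0 and the dashed line is the median of all genes tested, -0.06. Ccl8, Cxcl10, Ccl12 and Ccl7 lie farthest to the right, and the 7 receptors lie between Cxcr4 at -0.59 and Ccr2 at 0.84.

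Few receptors gave enough signal to be tested, and none passed the adjusted threshold. Of 11 CC receptors on the array 5 were tested, with a median log2 difference of 0.32, and of 6 CXC receptors 2 were tested. Ccr2, the receptor of Ccl2, Ccl7 and Ccl12, is named here after its values were seen, since it was the 1 tested receptor without overlap. It had -3.13, -3.07 and -3.62 in young mice and -2.85, -2.46 and -1.99 in aged mice. All 6 arrays had it well above background, and aged mouse 1 lay only slightly above the young mice. The mean was 1.79-fold higher in aged mice (log2 fold change 0.84, standard error 0.27, adjusted p = 0.257 in limma), and the log2 difference was 0.19 after normexp correction.

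Ccr9, the receptor of Ccl25, differed by 0.67 on the log2 scale, Ccr7 by 0.32, Ccr6 by 0.03 and Ccr8, a receptor of Ccl8, by -0.23, all with overlapping groups. Cxcr4, the receptor of Cxcl12, differed by -0.59 and Cxcr6, the receptor of Cxcl16, by 0.06. Under at least 1 alternative setting the sign changed for Ccr6, Ccr7, Cxcr4 and Cxcr6. Cxcr3, the receptor of Cxcl10, was well above background in young mouse 1 and aged mouse 1, and Cxcr5, the receptor of Cxcl13, on no array. Of the receptors named with the higher ligands above (CCR1, CCR2, CCR8, CXCR3 and CXCR5), Ccr2 and Ccr8 were well above background in all mice. For Ccr8 this held on the brighter probe only. A second probe of Ccr8 was not well above background on any array and differed by -0.15.

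Young mice 1 to 3 had 23, 24 and 22 of the 49 members well above background, against 26, 23 and 29 for aged mice 1 to 3. Over all genes with a symbol the share was 64.0% to 65.0% in young mice and 63.6% to 67.0% in aged mice. Aged mouse 3 had the most members above background but not the largest share of genes. It was the mouse in which Ccl3, Ccl4, Cxcl1 and Cxcl5 were well above background, and each of these was so on its array alone. Cxcl1 and Cxcl5 attract neutrophils through CXCR2. Cxcl5 was at -1.24 in aged mouse 3, beside -6.24 to -5.93 in young mice and -5.88 and -5.87 in the other aged mice. Ccr3 and Cxcr2 were well above background in aged mouse 1 alone, and Ccl28 in young mouse 2 alone. The 14 members above background in no mouse were Ccl1, Ccl20, Ccl22, Ccl26, Cxcl2, Cxcl3, Cxcl15, Cxcl17, Ccr1, Ccr1l1, Ccr4, Ccr10, Cxcr1 and Cxcr5.

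**Figure D3:**
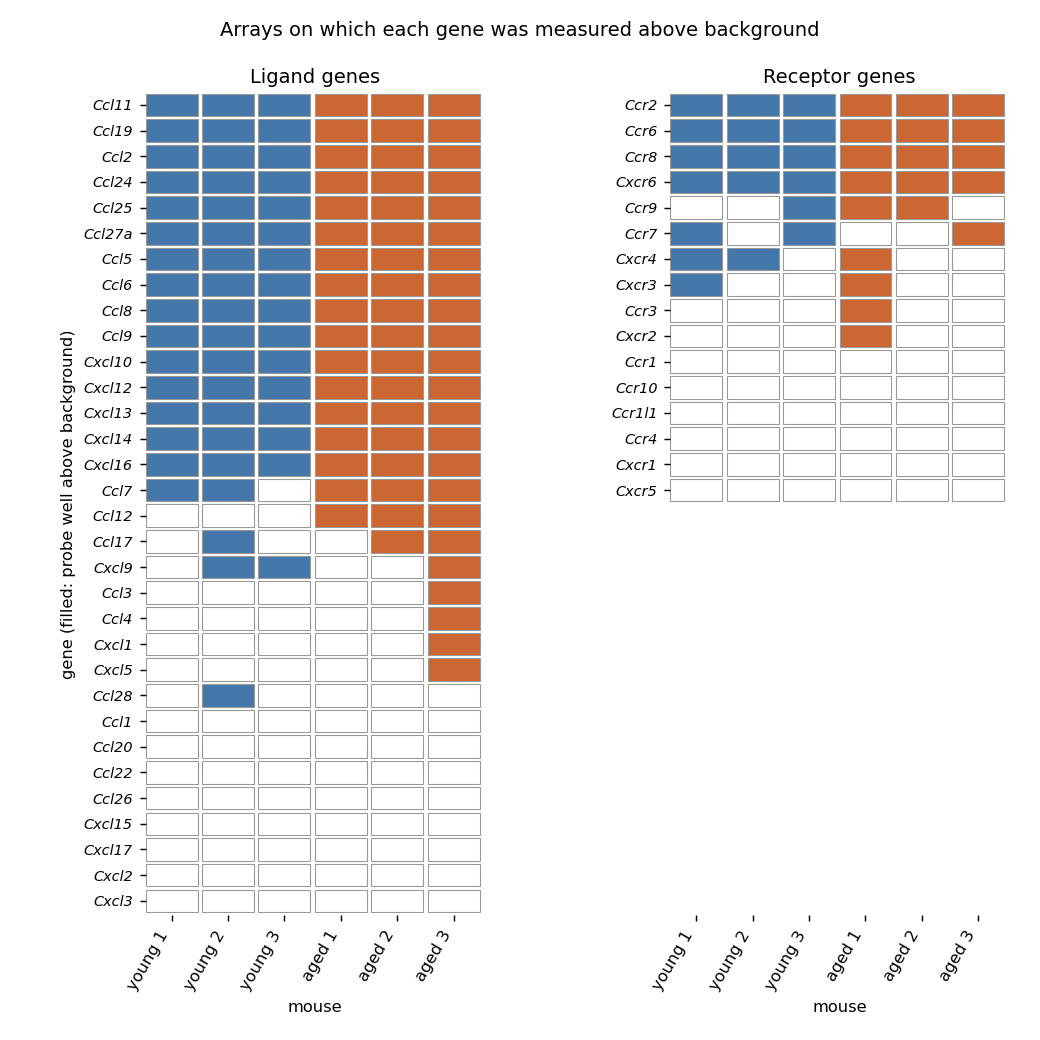
Arrays (columns, 3 young and 3 aged mice) on which each of the 32 ligand genes and of the receptor genes shown (rows) was well above background, shown as filled cells. Ccl12 is filled in the aged mice only, and Ccl3, Ccl4, Cxcl1 and Cxcl5 in aged mouse 3 only.

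The aged mice did not differ from the young mice to the same degree. The median difference from the young mean over the 26 members tested was 0.38 for aged mouse 1, 0.58 for aged mouse 2 and 0.87 for aged mouse 3. Over all genes tested the same medians were -0.07, -0.01 and -0.07. Aged mouse 3 was the highest aged mouse for 14 members, aged mouse 1 for 7 and aged mouse 2 for 5. Aged mice 1 to 3 were above every young mouse for 13, 13 and 12 members. Neither of these counts was made over all genes tested, so neither is read as a result about the members.

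Many of these genes lie side by side on the chromosome. On chromosome 11 the order is Ccl2, Ccl7, Ccl11, Ccl12, Ccl8 and Ccl1. The log2 differences in that order were 1.66, 2.75, -0.23, 3.03, 3.64 and 0.08, the last from a probe not well above background on any array. Ccl11 thus lay between genes with large differences and had none of that kind. Farther along chromosome 11, Ccl5, Ccl9, Ccl6, Ccl3 and Ccl4 follow each other, with differences of 1.37, 1.49, 2.12, 0.93 and 1.61, of which the last 2 rest on a signal well above background in aged mouse 3 alone. On chromosome 5, Cxcl9 and Cxcl10 are neighbours, at -0.71 and 3.62. On chromosome 9, the receptor genes Ccr9, Cxcr6, Ccr1, Ccr1l1, Ccr3 and Ccr2 follow each other, and Ccr9, Cxcr6 and Ccr2 were tested. Gene order is that of GRCm38.p6.

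**Figure D4:**
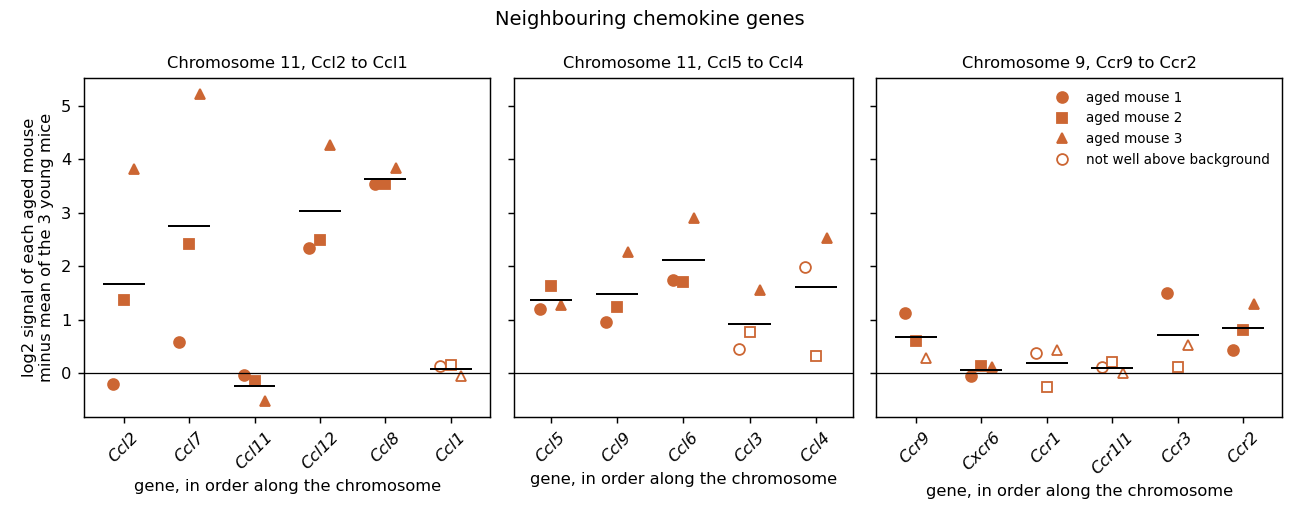
Log2 signal of each aged mouse minus the mean of the 3 young mice (vertical axis) for neighbouring chemokine genes in their order along chromosome 11 (2 clusters) and chromosome 9. Points are aged mice, open where the probe was not well above background, and the horizontal line is their mean. Ccl11 lies near 0 between Ccl7 and Ccl12, and aged mouse 3 is the highest for Ccl2, Ccl7, Ccl12 and Ccl8.

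Other genes of the chemokine system were taken from lists by function. Of 9 tested genes among the atypical receptors and remaining ligands, 5 had a higher mean in aged mice and 4 a lower one, and none passed the adjusted threshold. Cx3cl1, or fractalkine, a membrane-bound ligand of the monocyte receptor CX3CR1, was higher in every aged mouse (log2 difference 1.27, standard error 0.26, adjusted p = 0.137 in limma). Ackr1, which carries inflammatory chemokines across venular endothelium, was also higher in every aged mouse (1.23, adjusted p = 0.105 in limma). Cklf, or chemokine-like factor, was lower in every aged mouse, at -0.68. Ackr3, which removes Cxcl12, differed by -0.68 with overlapping groups.

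Of 15 tested cytokines, receptors and transcription factors that induce chemokine genes, 12 had a higher mean in aged mice and 3 a lower one, and Il1b passed the adjusted threshold. Il1b, the cytokine interleukin 1 beta, was not well above background in any young mouse, at -6.20, -5.67 and -5.08, and was so in every aged mouse, at -2.56, -2.63 and -2.49. Like Ccl12, it was tested through the aged mice alone, so a difference was built into its being tested. Against the floor described for Ccl12, which is not a strict limit, it was 2.70-fold higher in aged mice. The adjusted p from the measured signals was 0.0214 in limma, and after normexp correction the log2 difference was 0.60 (adjusted p = 0.168). In limma the adjusted p of Il1b was 0.0539 without young mouse 1 and 0.103 without young mouse 2. It was 0.0863 without aged mouse 2 and 0.111 without aged mouse 3. It was 0.0697 in the fit blocked by replicate number and 0.0795 without a filter on dim probes. Within row 1 of the slide, aged mouse 1 was 3.09 above the mean of the young mice. Nfkb2, an NF-kB subunit precursor, was at 0.15, 0.38 and 0.58 in young mice and 1.70, 2.36 and 2.33 in aged mice (log2 fold change 1.76, adjusted p = 0.0542 in limma). Its partner Relb differed by 0.89, and Tlr4, the receptor of bacterial lipopolysaccharide, by 1.43. Il1a, Tnf, Ifng, Il4 and Il13 were not well above background on any array.

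Among genes of chemokine receptor signalling, 4 of 12 tested had a higher mean in aged mice and 8 a lower one, with none past the adjusted threshold. The leukocyte genes Rac2 and Vav1, which drive the cytoskeleton of migrating cells, were higher in every aged mouse, at 1.01 and 0.89 on the log2 scale, and the widely expressed Gnai1 and Grk3 were lower in every aged mouse, at -0.79 and -0.54. Of 7 tested genes that cut chemokines or hold them on the cell surface, 4 had a higher mean and 3 a lower one, and Sdc2 was lower in every aged mouse, at -0.67. Of 8 tested genes of leukocyte adhesion, 6 had a higher mean and 2 a lower one. Selplg, which encodes the ligand of P-selectin on leukocytes, was higher in every aged mouse, at 0.53 on the log2 scale (adjusted p = 0.285 in limma).

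Markers of leukocytes were measured on the same arrays, and their part in the chemokine values was not tested. The summed signal below is relative to the 75th percentile of the array. For a list its size is set mostly by the brightest probe, while a difference between groups can come from dimmer ones. Of 11 tested macrophage and monocyte markers 8 had a higher mean in aged mice and 3 a lower one. The median log2 difference was 0.46. For 6 of the 11 every aged mouse was above every young mouse, where 7.92% of all genes tested had this pattern. Fcgr1, 1 of these 6, was well above background in aged mice alone, so a difference was built into its being tested. The summed signal of this list, led by Itgam, which differed by -0.26 on the log2 scale with overlapping groups, was 41.7 to 49.0 in young mice and 46.7 to 48.7 in aged mice, and Cd163 was not well above background on any array.

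Among 6 tested neutrophil markers 4 had a higher mean and 2 a lower one, and 2 passed the adjusted threshold. S100a8 and S100a9 rose by 4.80 and 4.70 on the log2 scale, both with an adjusted p of 0.00600 in limma, and both had 0.0557 without aged mouse 3 and 0.0633 in the fit blocked by replicate number. Retnlg was higher in every aged mouse, at 3.45 (adjusted p = 0.0603 in limma). It was well above background in aged mice alone, so a difference was built into its being tested. Camp and Elane were lower in every aged mouse, at -0.40 and -0.31, and Csf3r differed by 0.05 with overlapping groups. These markers were named after their values were seen. The summed neutrophil signal, led by Csf3r, was 157 to 162 in young mice and 169 to 199 in aged mice, while Mpo and Ngp were not well above background on any array. All 3 tested T cell markers had a lower mean in aged mice, with a summed signal of 2.91 to 3.10 in young mice and 2.62 to 3.32 in aged mice, and Cd3g, Cd8a and Lck were not well above background on any array. Of the 3 tested B cell markers 1 had a higher mean and 2 a lower one, with a summed signal of 0.514 to 0.998 in young mice and 0.533 to 0.960 in aged mice, and Ms4a1 was not well above background on any array. All 6 tested mast cell markers but 1 had a higher mean, with a summed signal of 4.01 to 5.75 in young mice and 5.29 to 7.40 in aged mice.

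The summed signal of some lists of other tissue cells was lower in every aged mouse, though not every gene of a list was. The summed signal of the fibroblast markers, led by Dcn, was 392 to 440 in young mice and 198 to 356 in aged mice, with 1 of 7 tested genes higher and 6 lower. That of the endothelial markers, led by Vwf, was 32.9 to 37.5 in young mice and 22.6 to 31.6 in aged mice, with 3 of 7 higher and 4 lower. That of the erythrocyte markers, led by Hba-a1, was 195 to 326 in young mice and 80.0 to 154 in aged mice, with all 4 tested genes lower. Fibroblasts and endothelium are among the sources of inflammatory chemokines, and the part of these shifts in the chemokine values was not tested.

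**Figure D5:**
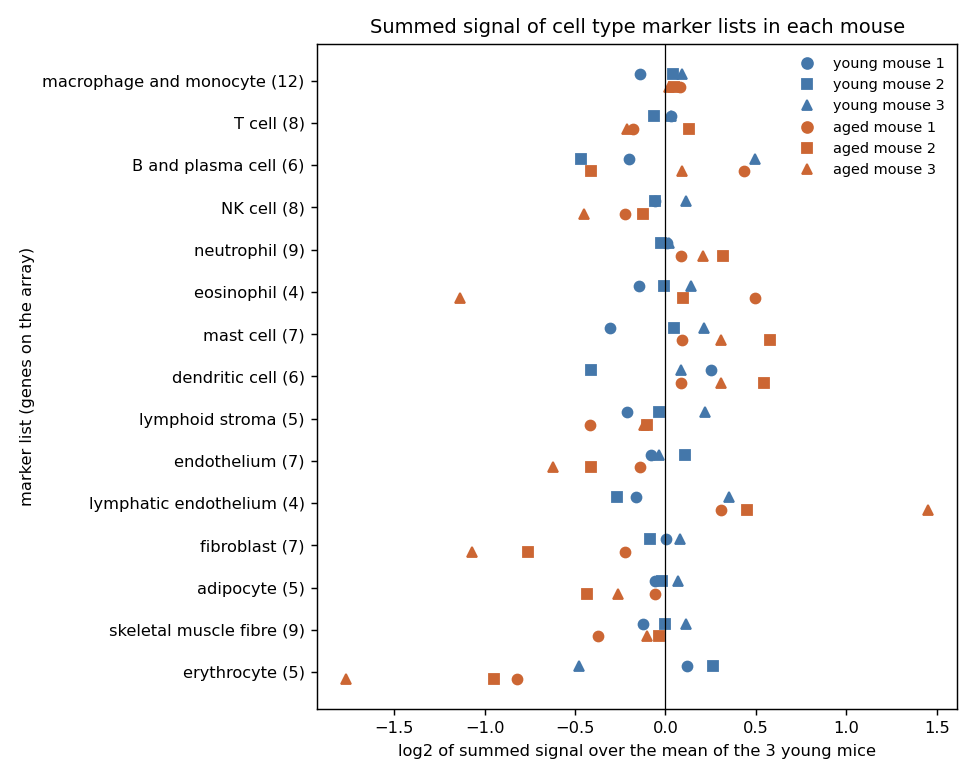
Log2 of the summed signal of each cell type marker list relative to the mean of the 3 young mice (horizontal axis), with 1 point per mouse and the number of genes on the array after each list name. The sums of the macrophage and T cell lists overlap between young and aged mice. The neutrophil sum is higher in every aged mouse, and the NK cell, fibroblast, endothelial, adipocyte and erythrocyte sums are lower in every aged mouse. The highest aged and lowest young adipocyte sums were close, at 135.1 and 135.6. The size of a sum is set mostly by the brightest probe, but a difference between groups need not be. Csf3r, the brightest neutrophil gene, was at 7.17 in aged mouse 1, below the young mice at 7.27 to 7.32. S100a8 and S100a9 were higher in every aged mouse. Single genes can go the other way from their sum, as Camp and Elane (neutrophil) and Prf1 (NK cell) did.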

How the data were processed

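Total RNA of gastrocnemius muscle was labelled with Cy3 and hybridized to 6 arrays on 1 slide, read in 1 scan. The authors deposited the output of Agilent Feature Extraction for each array (version 9.5 per the labels and 11.0.1.1 per the file headers), in which the processed signal is a linear intensity, subtracted for background and detrended within an array but not scaled between arrays. The series matrix held the same intensity. The methods name no normalization or test for the arrays.

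Of 62976 spots 59305 were not controls. Flagged spots (161 to 212 per array) were left out, replicate spots of a probe were averaged as log2 signals, and each array was scaled by subtracting its own 75th percentile. Of 55681 probes, 12 without an unflagged spot on every array were left out and 28319 were given a symbol through RefSeq transcripts of GRCm38.p6, while the array was designed on mm9. No probe was saturated. A gene was the probe with the highest mean among those well above background on at least 3 arrays. Groups were compared with limma 3.58.1 (lmFit, eBayes) in R 4.3.3, with Benjamini-Hochberg adjustment over all 20900 genes and a threshold of 0.05, after the fit was tested on simulated data. The number of arrays limits the precision, and with 3 mice a group the smallest p of a two-sided exact permutation test is 0.1.

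The members, lists and rules were chosen with earlier results of these data known. Values of every mouse were to be given for members past the threshold, members without overlap and a log2 difference of at least 1, members well above background on all arrays of a group and none of the other, and the 5 members with the highest mean signal. From the lists of related genes, at most 4 genes a list with an unadjusted p under 0.05 and no overlap were to be named, and of each marker list the brightest gene. Replicate numbers did not pair the mice, since the deviations of same-numbered mice had correlations of -0.06, -0.27 and 0.03. The values of 1 receptor gene and of 1 gene of a related list are not reported here.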

Additional observations from a re-analysis of the deposited data

How the results depend on the processing

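A total of 16 alternatives were tried: background correction by normexp with an offset of 50, 3 other scalings between arrays, 2 other filters on dim probes, the mean of a gene's probes, a mean-variance trend, blocks for slide row or for replicate number, and 6 fits that each left out a mouse. Over 476 values of 30 named genes, 447 kept direction and side of the threshold, 19 lost the threshold, 7 gained it and 3 changed sign. Among the members, Ccl8 accounted for all 7 losses and Cxcl10 for the 1 gain, without aged mouse 1. Row 2 held no young mouse, so the slide row as a block leaves only the difference of aged mouse 1 from the young mice. Under that block the sign changed for Cxcl12 (0.023) and Ccl2 (-0.21). The sign of Cxcl12 also changed without young mouse 3 (0.055, in a range of -0.37 to 0.055 over the fits that left out a mouse). Ccl8 had an adjusted p of 0.0795 in limma without a filter. With the replicate number as a block, 5 genes and 0 chemokine genes passed in limma (11 chemokine genes had an unadjusted p under 0.05), Ccl8 with an adjusted p of 0.0772. Genes past the threshold numbered 8 of 36710 without a filter and 35 of 18551 when only probes with the flag on every array stayed. Chemokine genes past it numbered 0 without a filter, where 13 had an unadjusted p under 0.05 in limma. Leaving out a mouse gave 1 to 199 genes, 0 to 2 chemokine genes and a median of 0.34 to 0.64. The median over the members was 0.064 after normexp correction, which compresses dim signals by its offset. Of the called genes 41 of 53 were higher in aged mice, 38 of 60 after normexp correction and 30 of 42 after quantile normalization. After median scaling, which moved the median of all genes from -0.06 to -0.21, the count was 26 of 42. A looser detection flag put 36 rather than 26 members above background on at least 3 arrays.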
